A study of Mus musculus with 2 samples.

Results

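The genes described here make catecholamines or load and recover small amine transmitters. They were the 10 genes Th, Dbh, Ddc, Gch1, Slc18a1, Slc18a2, Slc18a3, Slc6a2, Cyb561 and Pnmt, taken by name from the gene annotation of the array, with every probe that carried 1 of these names. They were 10 of the 31870 gene names on the array, with 13 of its 39429 probes. All 13 probes passed the filter on dim signal, so all 10 genes were among the 20506 tested. Expression was measured in ureters of NMRI mouse embryos at E14.5 on 2 dye-swapped 2-colour Agilent arrays. The tested RNA was labelled Gata2cKO, with the genotype Tbx18(cre/+);Gata2(fl/fl): 1 Tbx18 allele that makes Cre recombinase and loxP-flanked Gata2 alleles. The control RNA on the same array came from Tbx18(+/+);Gata2(fl/?) embryos, which had no Cre and carried a floxed Gata2 allele beside one written as a question mark in the label. Tbx18 is a T-box gene of the mesenchyme around the ureter, so Cre is driven there. The Cre allele came with the Gata2cKO genotype alone, and effects of that allele and of the floxed Gata2 alleles cannot be told apart. On the array of replicate 1 (array 1) both RNAs came from females, and the Gata2cKO RNA carried Alexa Fluor 647. On that of replicate 2 (array 2) both came from males, and it carried 555. Sex and dye orientation therefore cannot be told apart. Whether an RNA was pooled from several embryos is not given in the labels.

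Catecholamines are made from tyrosine. Th, tyrosine hydroxylase, makes L-DOPA in the rate-limiting step, with tetrahydrobiopterin (BH4) as a cofactor whose synthesis starts with Gch1. Ddc turns L-DOPA into dopamine, Dbh turns dopamine into noradrenaline inside vesicles, with electrons that Cyb561 carries across the vesicle membrane, and Pnmt methylates noradrenaline to adrenaline. Slc18a1 and Slc18a2 encode the vesicular monoamine transporters VMAT1 and VMAT2, known from chromaffin cells and neurons. Slc18a3 encodes the vesicular acetylcholine transporter and marks cholinergic neurons, and Slc6a2 encodes the plasma membrane noradrenaline transporter. In the body these genes work in sympathetic neurons, paraganglia and adrenal chromaffin cells, which derive from the neural crest and innervate or lie near the urinary tract.

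The probes that carry the results are 60-base oligonucleotides. The lines below give 30 bases of each, read 5′ to 3′ from the array annotation. The first 30 bases are shown, except for the brighter Slc18a2 probe, whose last 30 are given because they run into the dimmer probe of that gene. Capitals mark the 13 bases that both Slc18a2 probes share.
Th: ccaggatggtcctgcattcctcctgccctt
Dbh: ggtggtgacttgtgttagtgtatgccgtga
Slc18a1: ctccaatttgggaaatatggcattcattct
Slc18a2, brighter probe: gatcagcaaaggcatgcCTGTTACTGCTCT
Slc18a2, dimmer probe: CTGTTACTGCTCTccaaagaaaaaagaaaa
Slc6a2: atcctctttttcagagttttcttttcatct
Ddc, brighter probe: tggctgttaacttatcctctgtgtggctaa
Ddc, dimmer probe: ccacggctagctcatacccagctatgcttg
On mm9, the build of the array annotation, the Th probe lies at chr7:150078703-150078762 on the minus strand and the Dbh probe at chr2:27038665-27038724 on the plus strand. The brighter Slc18a2 probe lies at chr19:59370106-59370165 and the dimmer at chr19:59370153-59370212, both on the plus strand. The Slc18a1 probe is at chr8:71561627-71561686 on the minus strand and the Slc6a2 probe at chr8:95525166-95525225 on the plus strand. The brighter Ddc probe (chr11:11714106-11714165) and the dimmer one (chr11:11776262-11776321), both on the minus strand, start 62156 bases apart. The exon or untranslated region under each probe was not assigned, since no annotation of mm9 was used.

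In the RNA labelled Gata2cKO, 9 of the 10 genes were lower than in control RNA on both arrays, and Pnmt was the exception. The median log2 ratio of Gata2cKO over control was -1.02 over the 10 genes, against 0.00284 over all genes tested. With Slc6a2 at its bound (below) the median of the 10 was -0.93. Of all genes tested, 26.2% were lower on both arrays and 46.8% had opposite signs on the arrays, which 0 of the 10 had. In 9 of the 10 genes both Gata2cKO signals lay below both control signals, against 18.9% of all genes. A ratio of at least 1.5-fold lower on both arrays was reached by 6 of the 10 genes (Th, Dbh, Slc18a1, Slc18a2, Slc18a3 and Slc6a2) and by 0.439% of all genes. At 2-fold it was reached by 3 of the 10 (Th, Dbh and Slc18a2) and by 0.127% of all genes. By limma with Benjamini-Hochberg adjustment over all genes, 1 of the 10 genes fell, Slc18a2, and 0 rose. That number depended on the processing: it was 6 with the scanner software's ratios or a trended and robust variance, and 0 with median centring, in the authors' deposited table or with probes averaged per gene. The share of all genes that fell was 0.0439%, and 0.0878% changed in either direction. At an unadjusted p under 0.05, 8 of the 10 were lower, against 3.41% of all genes that were lower at that p and 7.17% that differed either way. Slc6a2 passed the filter through control RNA alone, where it is high, and so had to differ. Over the 19910 genes well above background in both RNAs, which hold the other 9 genes, 8 of the 9 were lower on both arrays (26.3% of those genes), 5 of the 9 by at least 1.5-fold (0.387%), and 7 of the 9 were lower at an unadjusted p under 0.05 (3.2%). The genes were proposed with results of these arrays known, so their counts are a description and not an independent test. In whole-tissue RNA, fewer cells of a type and less RNA per cell cannot be told apart.

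**Figure D1:**
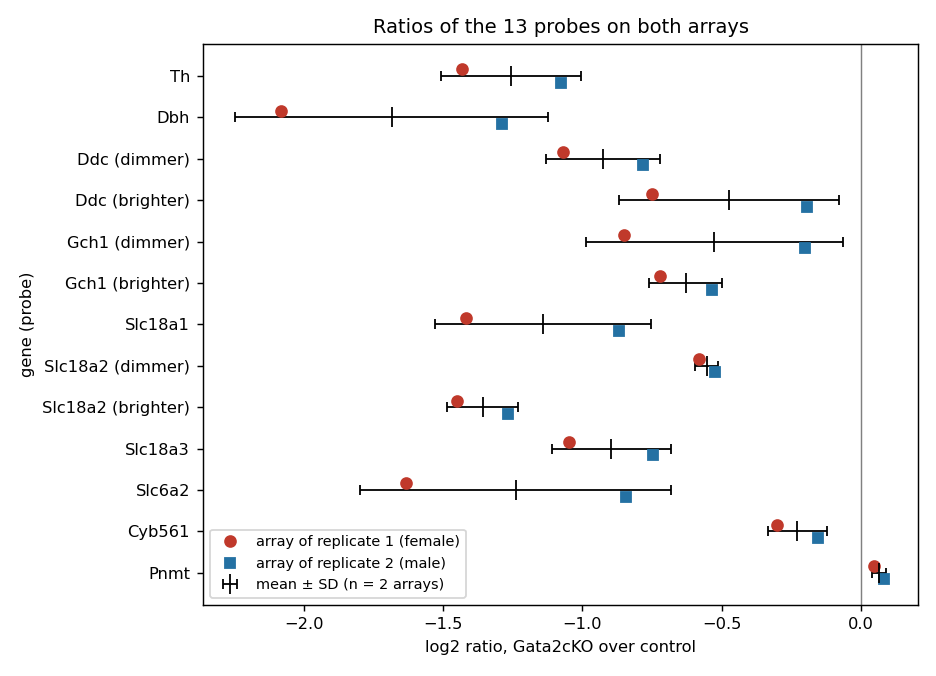
Log2 ratios (x axis) of Gata2cKO over control for each of the 13 probes (y axis) on array 1 (circles) and array 2 (squares), with the mean and SD over the 2 arrays. The probes other than that of Pnmt lie below 0 on both arrays, with means between -1.68 for Dbh and -0.23 for Cyb561.

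The facts of the series that bear on these values are few. The Gata2 probe was no dimmer in the Gata2cKO channel, with log2 ratios of 0.33 and 0.54 on arrays 1 and 2 (mean 0.44 ± 0.153, SD, n = 2; limma adjusted p = 0.409). The floxed exons are not named in the labels, and a probe outside them checks nothing. The text therefore speaks of RNA labelled Gata2cKO, shortened to Gata2cKO RNA, and each direction rests on the dyes given in the labels. Signal well above background was found in 66.0% to 69.4% of spots per channel. Markers of the labelled tissue were detected in both RNAs, with 6 of 6 genes each for urothelium and for ureteric mesenchyme and smooth muscle. Across all genes tested the ratios of the arrays correlated at r = 0.0643, with -0.572 in the brightest 25% of genes and 0.389 in the others. These are correlations across genes, which are not independent replicates. Of the 10 genes, 0 lay in the brightest 25%.

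Among the synthesis enzymes, Th had normalized signals of 1842 and 1825 in Gata2cKO RNA on arrays 1 and 2, against 4973 and 3851 in control RNA. The groups did not overlap, and by the mean ratio the level in Gata2cKO RNA was 41.9% of that in control RNA. Its log2 ratios were -1.43 and -1.08 (mean -1.25 ± 0.251, SD, n = 2; limma adjusted p = 0.0532), so the difference was 2.39-fold and missed the threshold over all genes. Dbh had 1865 and 1695 in Gata2cKO RNA, against 7889 and 4135 in control RNA. Among the 9 genes well above background in both RNAs it had the lowest ratio on both arrays, with log2 values of -2.08 and -1.29 (mean -1.68 ± 0.562, SD, n = 2; limma adjusted p = 0.0732). Expressed as a fold, Dbh was 4.23-fold lower on array 1 and 2.44-fold lower on array 2. The 95% interval of its mean ratio ran from 2.29-fold to 4.51-fold lower, and that of Th from 1.91-fold to 2.98-fold lower. These intervals use the limma variance, pooled in part over all genes. The standard error for Dbh was 0.197 by that variance, beside an SD of 0.562 over the 2 arrays.

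Ddc, the decarboxylase that also serves serotonin synthesis, differed by probe. Its brighter probe gave 5006 and 5151 in Gata2cKO RNA, against 8432 and 5899 in control RNA. The log2 ratios were -0.75 and -0.20 (mean -0.47 ± 0.393, SD, n = 2; limma adjusted p = 0.580), so most of the difference lay on array 1. The dimmer probe gave 719 and 729.7 in Gata2cKO RNA, against 1509 and 1254 in control RNA, a mean log2 ratio of -0.93 ± 0.204 (SD, n = 2; limma adjusted p = 0.0942 with this probe for the gene). The groups did not overlap at either probe. The RefSeq annotation of GRCm38.p6 lists 2 noncoding genes that overlap Ddc (Gm51937 and 1700042O10Rik), and signal from them was not separated.

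Gch1, the GTP cyclohydrolase that starts BH4 synthesis, had ratios nearer to 0 than Th at both of its probes, a gap that was not tested. The brighter probe gave 1494 and 1116 in Gata2cKO RNA, against 2466 and 1618 in control RNA (mean log2 ratio -0.63 ± 0.131, SD, n = 2; limma adjusted p = 0.197). The dimmer probe had 219.95 and 247 in Gata2cKO RNA, against 397 and 284 in control RNA, with ratios of -0.85 on array 1 and -0.20 on array 2. The probes start 1551 bases apart, and the RefSeq table lists a pseudogene, Gm18811, that overlaps Gch1.

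Cyb561 and Pnmt had the ratios nearest to 0. Cyb561, which feeds electrons to Dbh and is also made outside neuroendocrine cells, had 9512 and 10016 in Gata2cKO RNA, against 11734 and 11148 in control RNA. Its groups did not overlap, but its mean log2 ratio was only -0.23 ± 0.105 (SD, n = 2; limma adjusted p = 0.749), with a 95% interval from -0.50 to 0.04. Pnmt, which makes adrenaline and marks adrenergic chromaffin cells, had 232 and 215 in Gata2cKO RNA, against 224 and 203 in control RNA. The Pnmt groups overlapped, and its mean log2 ratio of 0.06 ± 0.0241 (SD, n = 2; limma adjusted p = 0.963) had a 95% interval from -0.20 to 0.32. That interval leaves room for a difference of up to 1.15-fold lower in Gata2cKO RNA. Dim signal also limits this ratio, which the interval does not take into account. The Pnmt signals were among the dimmest of those tested, at percentile 5.79 of the probes kept.

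**Figure D2:**
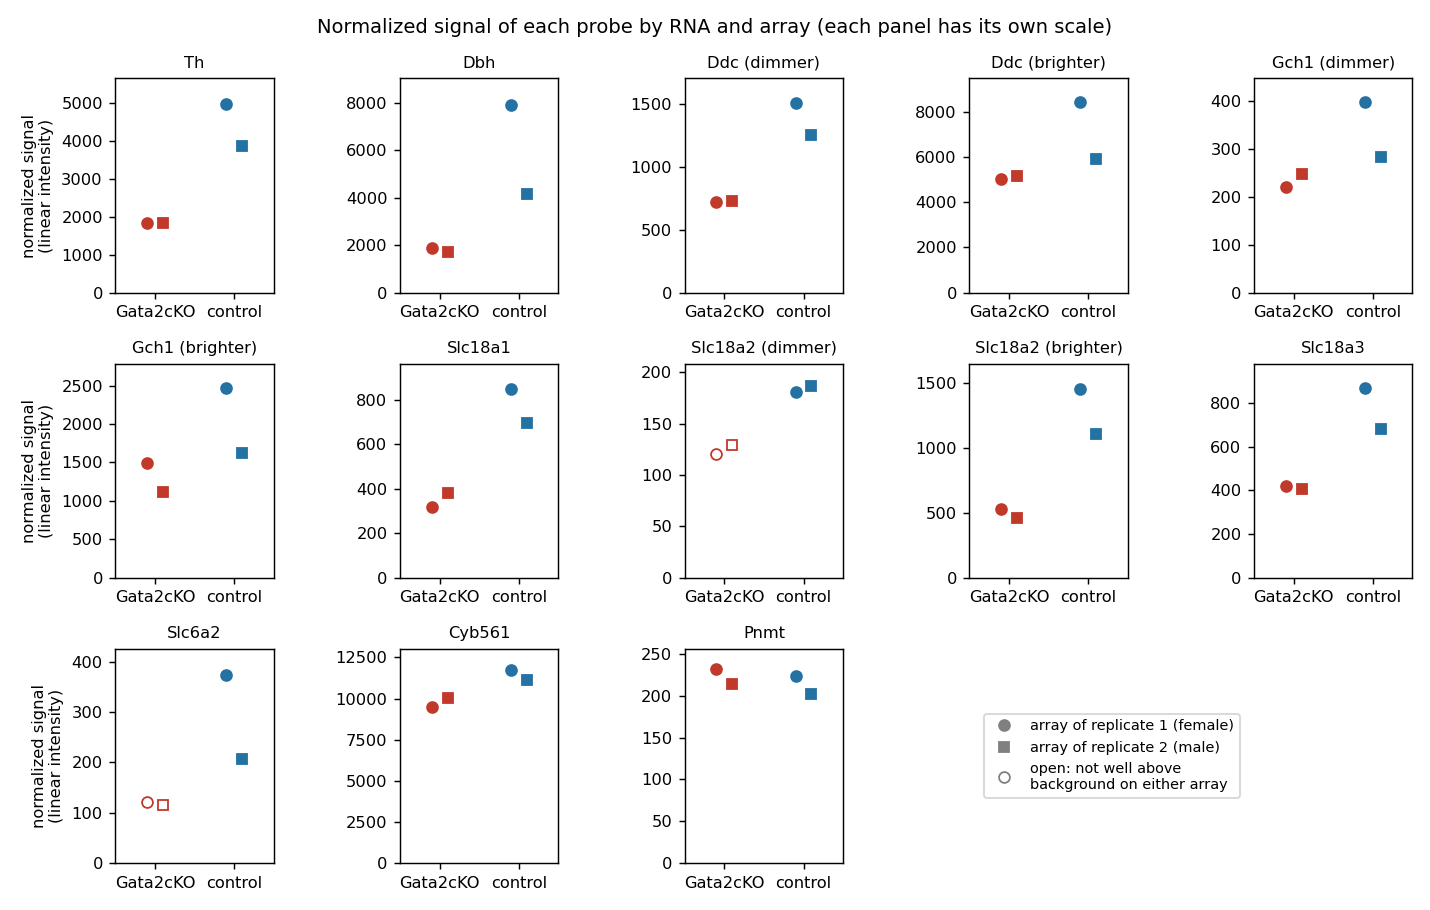
Normalized signal (y axis, linear intensity, its own scale in each panel) of each probe in Gata2cKO RNA (left in each panel) and control RNA (right), on array 1 (circles) and array 2 (squares). Gata2cKO signals lie below both control signals in each panel but that of Pnmt, and open symbols mark RNA that was not well above background on either array.

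All 3 genes of the vesicular transporter family were lower in Gata2cKO RNA on both arrays. At the brighter Slc18a2 probe the signals were 532 and 462 in Gata2cKO RNA, against 1452 and 1112 in control RNA. VMAT2 transcript thus fell 2.56-fold (log2 ratios -1.45 and -1.27, mean -1.36 ± 0.128, SD, n = 2; limma adjusted p = 0.0403). The dimmer Slc18a2 probe, which begins within the last 13 bases of the brighter one, had 121 and 129 in Gata2cKO RNA, against 181 and 186 in control RNA. It was not well above background in Gata2cKO RNA on either array, so its difference is a bound of at least 1.29-fold lower (limma adjusted p = 0.212 with this probe for the gene). With both probes averaged the call was lost (log2 ratio -0.96, limma adjusted p = 0.0646). It was also lost with median centring in place of loess, where the log2 ratio was -1.37 (limma adjusted p = 0.656) and 0 genes of the array passed.

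Slc18a1, the transporter known mostly from chromaffin and other neuroendocrine cells, gave 318 and 381 in Gata2cKO RNA, against 849.8 and 695 in control RNA. Its log2 ratios were -1.42 and -0.87 (mean -1.14 ± 0.388, SD, n = 2; limma adjusted p = 0.106), a difference of 2.21-fold that did not pass. The RefSeq table lists a protein-coding gene, Atp6v1b2, that overlaps Slc18a1, and signal from it was not separated. Slc18a3, the cholinergic member, gave 420.1 and 407 in Gata2cKO RNA, against 868 and 682 in control RNA. Its log2 ratios were -1.05 and -0.75 (mean -0.90 ± 0.214, SD, n = 2; limma adjusted p = 0.106). In neither gene did the groups overlap. Slc18a3 overlaps Chat, which encodes choline acetyltransferase, in the RefSeq annotation, and their RNAs share a locus. Chat, named for that overlap, gave log2 ratios of -0.16 and -0.02, and Slc5a7, the choline transporter of the same neurons, gave -0.30 and -0.15. Both were dim, with control signals of 218 and 176 for Chat and 251 and 240 for Slc5a7. The lowest control signals well above background were 157 and 133 on arrays 1 and 2, and dim signal limits these ratios. The difference between these ratios and those of Slc18a3 was not tested.

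Slc6a2, which takes released noradrenaline back into the neuron, had 121 and 115 in Gata2cKO RNA, against 374 and 207 in control RNA. It was well above background in control RNA on both arrays and in Gata2cKO RNA on neither. Its difference is therefore given as at least 1.96-fold lower in Gata2cKO RNA (limma adjusted p = 0.162). This bound is the mean control signal over the lowest signal well above background in the Gata2cKO channel of each array (153 and 132).

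Ranked by mean ratio among the 19910 genes well above background in both RNAs on both arrays, Dbh was number 6 from the lowest, Slc18a2 number 12, Th number 20, Slc18a1 number 28 and Slc18a3 number 49. Gch1 was number 117, Ddc number 232, Cyb561 number 1146 and Pnmt number 13540. Neighbours in this order had overlapping intervals, so their order is not fixed: Th (-1.57 to -0.94), Slc18a2 (-1.63 to -1.08) and Slc18a1 (-1.53 to -0.76) covered much of the same range. By distance of the ratios on the 2 arrays, the genes nearest to Th outside the list were Resp18 (distance 0.0595), Pitx1 (0.0750), Rgs4 (0.0764) and Colq (0.110). Those nearest to Slc18a2 were Prph (0.0821), Colq (0.0832), C2cd4b (0.125) and Resp18 (0.166). Likeness here rests on 2 arrays only.

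**Figure D3:**
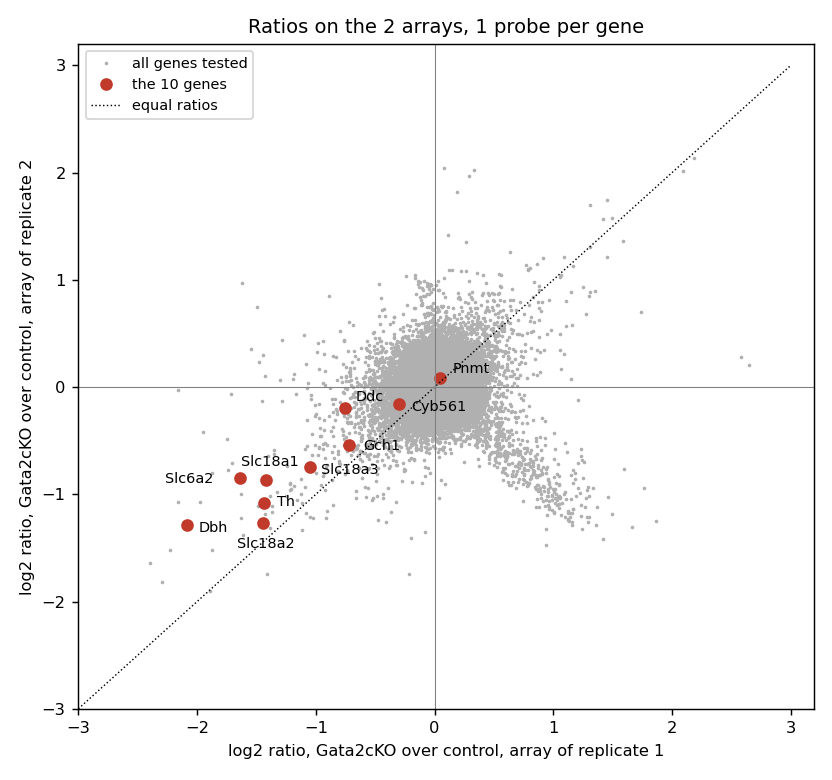
Log2 ratios of Gata2cKO over control on array 1 (x axis) and array 2 (y axis) for all 20506 genes tested (grey) and the 10 genes (red, named), with a dotted line where the ratios are equal. The 10 genes lie above the dotted line, 9 of them with both ratios below 0.

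The size of the difference was not the same on both arrays. All 10 genes had a lower ratio on array 1 (female) than on array 2 (male), as did 51.7% of all genes. The median ratio of the 10 was -1.23 on array 1 and -0.795 on array 2, where the medians of all genes were 0.000183 and 0.00406. In control RNA all 10 genes had a higher normalized signal on array 1 than on array 2 (51.3% of all genes), with the signal on array 1 at 1.91 times that on array 2 for Dbh, 1.52 times for Gch1, 1.31 times for Slc18a2 and 1.29 times for Th. In Gata2cKO RNA 7 of the 10 were higher on array 1 (48.7% of all genes), at 1.34 times the signal on array 2 for Gch1, 1.15 times for Slc18a2, 1.10 times for Dbh and 1.01 times for Th. The Slc6a2 signals in Gata2cKO RNA were not well above background, and 6 of the other 9 genes were higher there. With 1 RNA per sex and group the difference between arrays has no replicate check, and sex, dye orientation and the sampled embryos cannot be told apart in it.

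The rest of the pathway, 38 tested genes of 44 listed for cofactor, breakdown, uptake, receptor, cholinergic and regulator roles, had 0 genes past the limma threshold over all genes, while 15 had an unadjusted p under 0.05. The share of all genes at that p was 7.17%. Of these 38, 23 were lower and 5 higher on both arrays, against 26.2% and 27.0% of all genes. Chrm3 (below), among those lower, passed the filter through control RNA alone, which favoured a lower ratio. The other genes of BH4 synthesis and recycling had a median log2 ratio of -0.12 (5 of 5 tested, 3 lower on both arrays), with Pts at -0.27, Spr at -0.12 and Pcbd1 at -0.09. The breakdown enzymes Maoa and Maob, which oxidise amines, each had a negative ratio on array 1 and a positive one on array 2, with means of 0.04 and 0.07. Other amine synthesis and uptake genes went both ways, with 6 of 9 tested lower and 2 higher on both arrays. Among them were Tph1, the serotonin synthesis enzyme (-0.64), and the organic cation transporters Slc22a3 (0.66) and Slc22a2 (0.56). Tph2 and the dopamine transporter gene Slc6a3 were not well above background in either RNA.

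On the receiving side, 7 of 9 adrenergic receptor genes were tested, with a median log2 ratio of 0.00358. The largest ratios of the same sign on both arrays were those of Adra1d (-0.30) and Adra2a (-0.28), and 0 of the 7 passed. Of the cholinergic genes 4 of 6 tested were lower and 1 higher on both arrays, against 26.2% and 27.0% of all genes. Their median log2 ratio was -0.16, with Ache at -0.35 and Bche at 0.33. Chrm3, a muscarinic receptor gene, was not well above background in Gata2cKO RNA and was at least 1.24-fold lower there (limma adjusted p = 0.393). It is counted among the 4 lower genes, but it passed the filter through control RNA alone, which favoured a lower ratio.

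Regulators of the sympathoadrenal lineage had lower values, with 7 of 8 below 0 on both arrays (26.2% of all genes) and a median log2 ratio of -0.796. Insm1 was at -1.43 (limma adjusted p = 0.0503), Hand2 at -1.34 (0.211) and Phox2a at -1.31 (0.0934), none of them past the threshold. Gata3 was the 1 regulator above 0 on both arrays, at 0.21 ± 0.114 (SD, n = 2; limma adjusted p = 0.774).

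**Figure D4:**
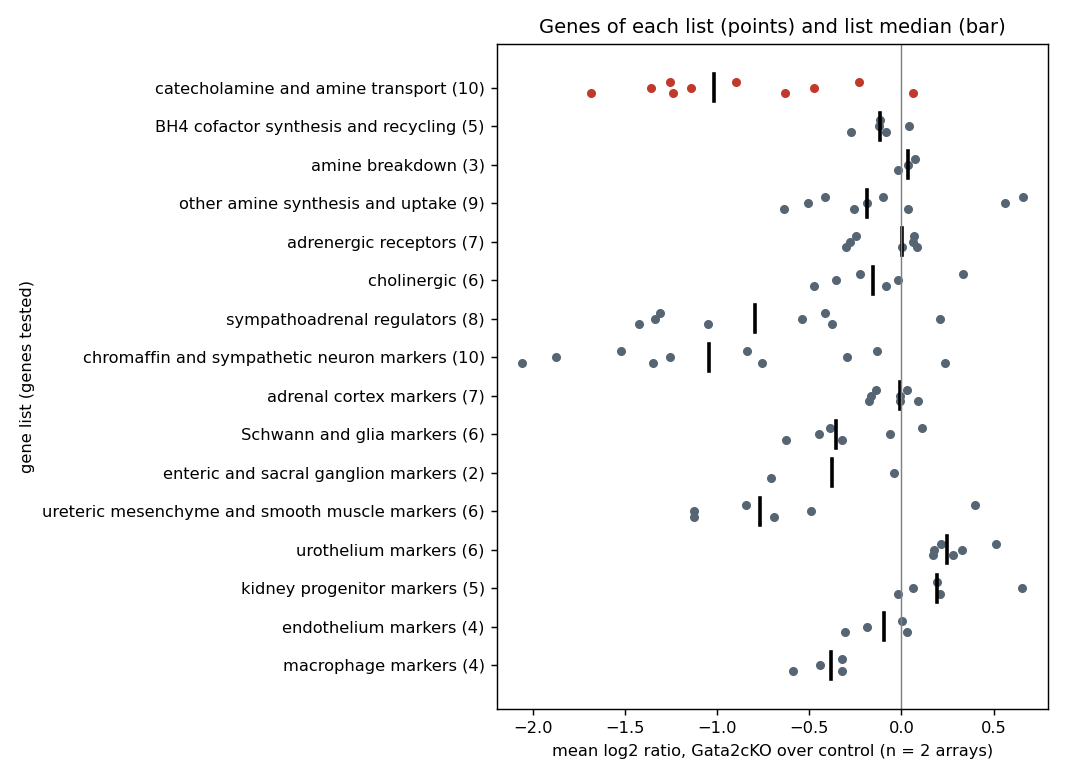
Mean log2 ratio of Gata2cKO over control (x axis, n = 2 arrays) of each tested gene (points) in each list (y axis, number of genes tested in brackets), with the list median as a bar. The catecholamine and amine transport genes (median -1.02), the sympathoadrenal regulators (-0.796) and the chromaffin and sympathetic neuron markers (-1.05) have the lowest medians. The ureteric mesenchyme and smooth muscle markers (-0.770) come close behind the regulators.

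Most markers of the cells that use these genes had lower values too. Of 10 chromaffin and sympathetic neuron markers tested, 8 were lower and 1 higher on both arrays, against 26.2% and 27.0% of all genes. Their median log2 ratio was -1.05. The 2 that fell past the limma threshold were Chgb, a granin of secretory granules (-2.06, adjusted p = 0.0380), and Prph, an intermediate filament of peripheral neurons (-1.35, adjusted p = 0.0380). The marker higher on both arrays was Snap25 (0.33 and 0.14), and Syt1 had opposite signs (-0.44 and 0.18). Scg2, among those lower, passed the filter through control RNA alone and so had to differ. Summed over all 10 markers, the normalized signal was 35366 and 39284 in Gata2cKO RNA, against 58984 and 49927 in control RNA. That of the 10 catecholamine genes was 21343 and 21382 in Gata2cKO RNA, against 39263 and 29550 in control RNA. A few bright genes weigh most in such sums, which therefore do not stand for each gene of a set. In Gata2cKO RNA, Snap25 gave 14945 and 17419, Syt1 9292 and 11177, and Cyb561 9512 and 10016. Schwann cell and glia markers had a median of -0.36 with 4 of 6 lower on both arrays. Foxd3, among those 4, passed the filter through control RNA alone, which favoured a lower ratio. With Foxd3 at its bound the median was -0.34. The summed signals of this list were 12004 and 12841 in Gata2cKO RNA, against 15534 and 14602 in control RNA. The part of these cell types in the differences was not tested. The 2 enteric and sacral ganglion markers that were tested had a median of -0.38, and Vip and Nos1 were not well above background in either RNA.

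Other tissues of the ureter or near it gave the following values. Adrenal cortex markers, which would come with adrenal tissue, had a median log2 ratio of -0.00991 (7 of 8 tested, 2 lower and 1 higher on both arrays), with summed signals of 3135 and 2857 in Gata2cKO RNA, against 3265 and 2935 in control RNA. The receptor gene Mc2r was not well above background in either RNA. Of all genes, 26.2% were lower and 27.0% higher on both arrays. Smooth muscle and ureteric mesenchyme markers had 5 of 6 genes lower on both arrays (median -0.77) and macrophage markers 4 of 4 (median -0.38). The lower genes of the former list were smooth muscle genes. Its mesenchyme marker Tbx18, the gene that carries the Cre allele, was higher on both arrays, at 0.65 and 0.15 (limma adjusted p = 0.660). Urothelium markers had 4 of 6 genes higher on both arrays (median 0.246), kidney progenitor markers 3 of 5 (median 0.19), and endothelium markers 2 of 4 lower (median -0.09). None of the genes in these 6 lists passed the limma threshold. Their part in the results was not tested.

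RefSeq promoters of GRCm38.p6 were available for 6 of the 10 genes, 7 in all with 2 for Ddc. The 250 bases before the start are printed for the enzymes Th and Dbh and for Slc18a2, the 3 genes at least 2-fold lower on both arrays, so that the shared and unshared letters can be seen. They are given 5′ to 3′ in the direction of transcription. Capitals mark matches, on either strand, to AGATAA (a hexamer bound by GATA factors), TGACGTCA (the cyclic AMP response element), GGGCGG (the GC box) and TAAT followed after 3 bases by ATTA (paired homeodomain half-sites).
Th: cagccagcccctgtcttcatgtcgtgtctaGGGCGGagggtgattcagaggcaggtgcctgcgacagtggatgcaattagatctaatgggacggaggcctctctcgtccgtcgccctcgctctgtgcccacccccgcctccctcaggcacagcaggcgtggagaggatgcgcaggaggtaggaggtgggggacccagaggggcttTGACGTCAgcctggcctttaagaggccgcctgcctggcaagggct
Dbh: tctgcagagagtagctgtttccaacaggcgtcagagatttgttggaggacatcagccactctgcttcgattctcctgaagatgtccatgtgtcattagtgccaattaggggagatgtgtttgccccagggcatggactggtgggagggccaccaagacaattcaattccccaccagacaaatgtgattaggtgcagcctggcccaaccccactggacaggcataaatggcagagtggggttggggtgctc
Slc18a2: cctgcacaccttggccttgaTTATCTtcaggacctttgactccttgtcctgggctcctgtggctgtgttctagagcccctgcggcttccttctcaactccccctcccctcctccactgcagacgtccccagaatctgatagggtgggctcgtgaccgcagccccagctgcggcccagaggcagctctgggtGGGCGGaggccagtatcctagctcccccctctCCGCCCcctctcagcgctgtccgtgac
These windows are chr7:142899996-142900245 (minus strand) for Th, chr2:27165257-27165506 (plus strand) for Dbh and chr19:59260628-59260877 (plus strand) for Slc18a2. AGATAA was matched in 1 of the 7 windows, that of Slc18a2, where it reads TTATCT from base 230 to base 225 before the start. It was found in 9.99% of the 32851 promoter windows in the table. TGACGTCA was matched only in the Th window, from base 45 to base 38 before the start, and in 1.55% of all windows. GGGCGG occurred in 4 of the 7 windows (Th, Gch1, Slc18a2 and Slc18a3) and in 32.7% of all, and CANNTG, the E-box, in 4 of the 7 (Th, Dbh, Slc18a2 and Slc18a3) and in 66.2% of all. The paired half-sites were matched in 0 of the 7 and in 0.463% of all. Of the motifs searched, CANNTG, which is not capitalised here, was the one matched in all 3 printed windows, and no 2 matches overlapped. GC content was 64.4% for Th, 53.2% for Dbh and 64.0% for Slc18a2, against a median of 52.4% over all windows.

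The authors' deposited table holds a signed fold per probe, read here as its log2, and its direction is not stated. Gata2cKO over control was inferred from its positive correlation across probes with the scanner's own ratios, which was only r = 0.361 and 0.277. In the authors' deposited table, read that way, the mean of both columns was below 0 for all 10 genes. Of the 10, 7 were below 0 in both columns, a count that lacks a background, since the share of all genes is not given here. In the authors' deposited table Slc18a1 was at -0.16 and -2.12 for arrays 1 and 2, and Slc18a3 at -0.79 and -0.32. Th was at -0.44 and -0.89 in the authors' deposited table, the brighter probes of Ddc and Gch1 at -0.41 and -0.60 and at -0.49 and -0.59, and Cyb561 at -0.48 and -0.40. Pnmt, higher on both arrays as reported above, was also among the 7, at -0.12 and -0.06 in the authors' deposited table. The remaining 3 of the 10 genes had opposite signs there. In the authors' deposited table Dbh was at 0.04 and -1.65, the brighter Slc18a2 probe at 0.01 and -1.82, and Slc6a2 at 0.40 and -0.51. The dimmer Slc18a2 probe was at exactly 0 on the log2 scale in both columns of the authors' deposited table, as are 28.0% and 28.3% of all probes. The steps behind that table and its centring are not stated.

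**Figure D5:**
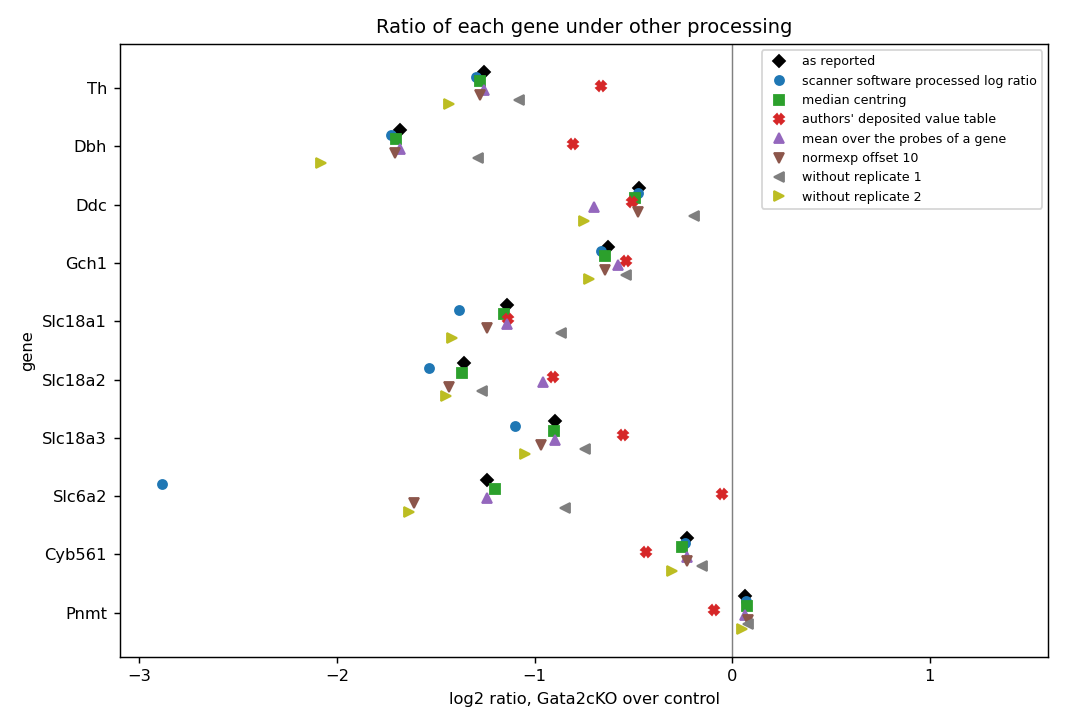
Log2 ratio of Gata2cKO over control (x axis) of each gene (y axis) as reported and under 7 other ways of processing, each with its own symbol. Values of 9 genes stay below 0, with Slc6a2 spread from -2.88 with the scanner software's processed ratio to -0.05 in the authors' deposited table, and Pnmt lies on both sides of 0. Leaving out either replicate could not turn the sign of these 9 genes, and averaging moved only genes with several probes.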

How the data were processed

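Two-colour intensity of 39429 probes was measured on 2 arrays, with 1 Gata2cKO and 1 control RNA each. Per the file headers, the authors read the arrays with Agilent Feature Extraction 10.7.3.1, which the submitters' processing notes also name. The deposited scanner files give mean spot signal and local background as intensity, software-processed signals (background-subtracted, dye-normalized) and their log10 ratio, red over green. The authors' deposited value table holds a signed fold score per probe, of unstated origin. Here, background was corrected by normexp (offset 50) and ratios were normalized by loess (span 0.3) within arrays, with outlier spots (255 and 178, 0 of them of the 10 genes) and control spots at weight 0. Array 2 was turned by the dyes in the labels. Normalized signals are per channel after loess and Aquantile, in linear intensity. They are compared within a probe or, as sums, within the same set of probes. Probes well above background on both arrays in at least 1 RNA were kept (25657), with the brightest probe per gene (20506 genes), and tested against 0, two-sided, with limma 3.58.1 (lmFit, eBayes) under R 4.3.3, adjusted by Benjamini-Hochberg over all genes with a threshold of 0.05. There was 1 residual degree of freedom and a prior of 4.68. The p-values rest on a variance that joins the spread of a gene between 2 arrays with the prior, drawn from all genes. The number of arrays limits the precision. Symbols came from RefSeq accessions (26412 probes) or else from the file (13017). Code was tested on simulated arrays. The genes, lists and rules were chosen with earlier results of these data known: all 10 genes are named, and of each other list the genes past the threshold or up to 3 with the largest ratios of 1 sign, plus the 4 genes nearest to Th and to Slc18a2. Some values that this rule would name are not reported here. Figures were drawn with matplotlib 3.10.9 in Python 3.11.15.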

Additional observations from a re-analysis of the deposited data

How the results depend on the processing

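The mean ratios of the genes other than Pnmt kept their sign under 8 other ways of processing, which include the other probe of a gene. Not all of these could move a ratio. Leaving out the detection filter or using a trended variance did not alter it, and averaging altered only genes with more than 1 probe. With either replicate left out the sign was fixed, since these genes were lower on both arrays. Pnmt was at -0.0908 in the authors' deposited table. The number of the 10 genes past the limma threshold was 1 as reported. It was 6 with the scanner software's processed ratios (Dbh, Slc18a1, Slc18a2, Slc18a3, Slc6a2 and Th) and 6 with a trended and robust variance (Gch1 in place of Slc6a2), 3 with no filter on detection, 2 with an offset of 10, and 0 with median centring, in the authors' deposited table and with probes averaged per gene. These settings called 165, 376, 54, 42, 0, 0 and 23 of all genes, against 18 as reported. At an unadjusted p under 0.05 the number was 8 with median centring, 8 with probes averaged, and 5 in the authors' deposited table. The shares of all genes at that p under these settings are not given here, so these counts lack a background. For Slc18a2 alone the adjusted p was 0.656 with median centring and 1 in the authors' deposited table (log2 ratio -0.91), within a range from 2.04e-05 to 1. Other pathway genes past the threshold numbered 5, 9, 2, 1 and 1 with processed ratios, trended variance, no filter, averaged probes and an offset of 10. The cause of these shifts was not tested. The number of genes lower was 9 without replicate 1 and 9 without replicate 2, which follows from the signs on both arrays. The number at least 1.5-fold lower, 6 on both arrays, was 0 in the authors' deposited table. It was 6 without replicate 1 and 8 without replicate 2, counted on 1 array alone, a looser rule. These counts lack a background too, since the shares of all genes under these settings are not given here. For Slc6a2 the scanner software put a surrogate value in for the Gata2cKO channel on 1 array, and its mean ratio by that software was -2.88. Dim signal over background limits that gene and the dimmer Slc18a2 probe. The ratio within an array already pairs the RNAs of a replicate, and no further block was fitted.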
